A study of Mus musculus with 2 samples.

Results

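The Myc, Max and Mxd network is a set of 9 genes of the 32285 in each deposited matrix, taken by symbol with no reference to measured values. Myc and Mycn encode the activators, Max their common partner, Mxd1, Mxd3, Mxd4 and Mxi1 the Mxd repressors, and Mnt and Mga related repressors. All 9 had at least 1000 UMIs (unique molecular identifiers, each marking 1 captured transcript molecule), as had 9840 genes in all. The study profiled bone marrow LSK cells by CITE-seq, which reads RNA and antibody tags in the same cells. LSK stands for low lineage markers with Sca-1 and c-Kit on the surface, a fraction with the haematopoietic stem cell (HSC) and its nearest multipotent progenitors (MPP). The chelator pool came from mice given the iron chelator deferoxamine at 50 mg/kg, and the control pool from mice given the vehicle HBSS. Both received 7 daily doses in every 4 weeks for 13 months, starting at about 6 months of age, so that all cells came from ageing mice. No strain, genotype or number of mice is given in the sources used here. Each condition was 1 pool of cells with its own hashtag, run as 1 loading with an RNA and an antibody-tag library, so no difference could be tested across animals.

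Myc and Mycn proteins bind DNA as dimers with Max at the E-box, and there recruit coactivators to genes of ribosome assembly, metabolism and cell division. The Mxd proteins, Mnt and Mga compete for Max and the same sites and bring repressors, so that the balance between the arms, rather than Myc alone, is thought to set the output. In blood formation, Myc and Mycn together are known to be needed for HSC survival, and Myc for the step from self-renewal to differentiation.

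The control pool held 4026 barcodes and the chelator pool 4037, of which 3969 and 3998 were kept, with a median of 13705 and 14456 gene UMIs per cell. No barcode was shared between the pools. Cells were assigned to 5 gates by the CD135, CD48 and CD150 antibody tags. The HSC gate is negative for CD135 and CD48 and positive for CD150, MPP1 negative for all 3, MPP2 positive for CD48 and CD150, MPP3 positive for CD48 alone, and MPP4 positive for CD135 and negative for CD150. In the order control and chelator, the gates held 1162 and 1310 HSC, 548 and 565 MPP1, 92 and 100 MPP2, 502 and 614 MPP3, and 1510 and 1287 MPP4 cells. Levels are given as CPM, the UMIs of a gene in the cells named, divided by all gene UMIs of those cells and multiplied by 1000000. The mRNA levels followed the tags: Slamf1, which encodes CD150, was at 58.3 and 58.5 CPM in the HSC gate against 0.91 and 1.03 in MPP4, and Flt3, which encodes CD135, at 7.03 and 8.87 against 280 and 275. The CD135 threshold is the least sharp, since 22.1% of cells lay within 0.25 log units of it. Xist and Y-linked transcripts showed cells of both sexes in each pool. Of the cells with a sex, 42.1% had Xist in the control pool and 26.1% in the chelator pool, so results for the conditions are also given within each sex. Of the markers of other cell types, the summed erythroid level in the MPP4 gate was 587 CPM in the control pool and 55.5 in the chelator pool. Other gate sums that differed by more than 1.5-fold, with at least 10 CPM in either pool, were erythroid in HSC (25.9 and 44.7) and, in MPP3, mast (199 and 99.6), megakaryocyte (100.4 and 58.4) and B (15.4 and 2.82). In MPP2 they were granulocyte (249 and 520) and B (17.0 and 10.0). The part of these cells in the results was not tested. Ratios carry 95% intervals that cover counting error only.

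RefSeq promoter windows of GRCm38.p6, from 250 bases before to 50 after the start, were found for 8 of the 9 genes, in 10 windows. They are shown for the genes whose windows hold the network's own site, and for the pair with the steepest expression patterns. Capitals mark the E-box CACGTG and core words of the E2F factors, which act on genes of S phase, all read on both strands. The core words searched were TTCCCGC, also its close relative TTGGCGC, then as further forms the word TTCGCGC and lastly the fourth form TTGCCGC.
Max promoter: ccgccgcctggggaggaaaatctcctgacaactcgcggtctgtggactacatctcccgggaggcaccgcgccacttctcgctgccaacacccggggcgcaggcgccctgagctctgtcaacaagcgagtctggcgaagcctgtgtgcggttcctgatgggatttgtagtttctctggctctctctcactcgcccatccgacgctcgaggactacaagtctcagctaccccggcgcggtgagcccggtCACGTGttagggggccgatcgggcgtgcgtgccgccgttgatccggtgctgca
Mxd4 promoter: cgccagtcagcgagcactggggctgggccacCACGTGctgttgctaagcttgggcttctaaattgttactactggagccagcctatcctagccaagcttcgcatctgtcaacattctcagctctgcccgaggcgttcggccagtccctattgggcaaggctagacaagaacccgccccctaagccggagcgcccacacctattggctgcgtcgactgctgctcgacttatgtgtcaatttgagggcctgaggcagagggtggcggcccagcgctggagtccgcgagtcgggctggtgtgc
Mnt promoter: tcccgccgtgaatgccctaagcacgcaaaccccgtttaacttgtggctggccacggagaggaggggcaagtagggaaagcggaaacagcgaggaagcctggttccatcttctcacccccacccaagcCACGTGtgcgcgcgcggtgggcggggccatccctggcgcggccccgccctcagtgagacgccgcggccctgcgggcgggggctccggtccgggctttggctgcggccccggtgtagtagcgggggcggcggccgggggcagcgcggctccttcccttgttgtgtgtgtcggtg
Mycn promoter: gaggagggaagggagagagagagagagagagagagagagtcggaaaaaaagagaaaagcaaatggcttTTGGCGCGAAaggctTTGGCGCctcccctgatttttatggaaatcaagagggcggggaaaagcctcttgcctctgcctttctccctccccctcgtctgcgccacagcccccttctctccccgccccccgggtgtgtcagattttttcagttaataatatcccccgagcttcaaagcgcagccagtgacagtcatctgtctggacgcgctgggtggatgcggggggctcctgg
Mxd3 promoter: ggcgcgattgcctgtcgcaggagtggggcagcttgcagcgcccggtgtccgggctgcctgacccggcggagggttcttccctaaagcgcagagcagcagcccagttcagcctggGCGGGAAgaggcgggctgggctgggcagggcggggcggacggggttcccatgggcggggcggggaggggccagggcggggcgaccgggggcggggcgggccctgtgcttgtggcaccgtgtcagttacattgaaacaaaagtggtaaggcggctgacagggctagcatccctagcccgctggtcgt
Max (chr12:76962199-76962498, minus strand), Mxd4 (chr5:34187661-34187960, minus strand) and Mnt (chr11:74830674-74830973, plus strand) hold 1 E-box each, at base 248, 32 and 128 of the window. The E-box occurs in 7.15% of the 32851 windows of the same length. Mycn (chr12:12941787-12942086, minus strand) holds 3 E2F words, at bases 69, 72 and 84, of which the first pair overlap, and Mxd3 (chr13:55329682-55329981, minus strand) holds 1 at base 115. Such words occur in 9.57% of windows, and 1 of the 3 Mxi1 windows also holds one. These are matches of letters, not measured binding.

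Mycn and Myc ran in opposite directions between the stem cell gate and the progenitor gates, in both pools. Mycn was highest in the HSC gate, at 218 CPM in the control pool and 209 in the chelator pool. The other gates were lower, at 67.3 and 52.9 in MPP1, 65.1 and 67.0 in MPP2, 23.8 and 21.2 in MPP3, and 27.9 and 26.8 in MPP4. The HSC gate thus exceeded MPP4 by 7.84-fold in the control pool (95% interval 7.23 to 8.51) and by 7.82-fold in the chelator pool (7.18 to 8.52). The intervals of MPP1 and MPP2 overlapped in both pools, and those of MPP4 and MPP3 in the control pool, so the order within those pairs is not resolved. Myc had its lowest level in the HSC gate, at 233 and 275 CPM. It stood at 377 and 406 CPM in MPP1, 312 and 339 in MPP2, 371 and 441 in MPP3, and 409 and 463 in MPP4. The HSC gate was lower than MPP4 by 1.76-fold (1.69 to 1.82) in the control pool and by 1.69-fold (1.63 to 1.74) in the chelator pool. The counting intervals of MPP1 and MPP3 overlapped in the control pool, whereas those of all neighbours were apart in the chelator pool. Both genes were spread unevenly over cells, so these intervals may be too narrow to settle the order of close gates. Both patterns stood in each sex: the Mycn ratio of HSC over MPP4 ranged from 6.84 to 9.10 over the 4 combinations of sex and pool, and that of Myc from 0.579 to 0.604.

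**Figure D1:**
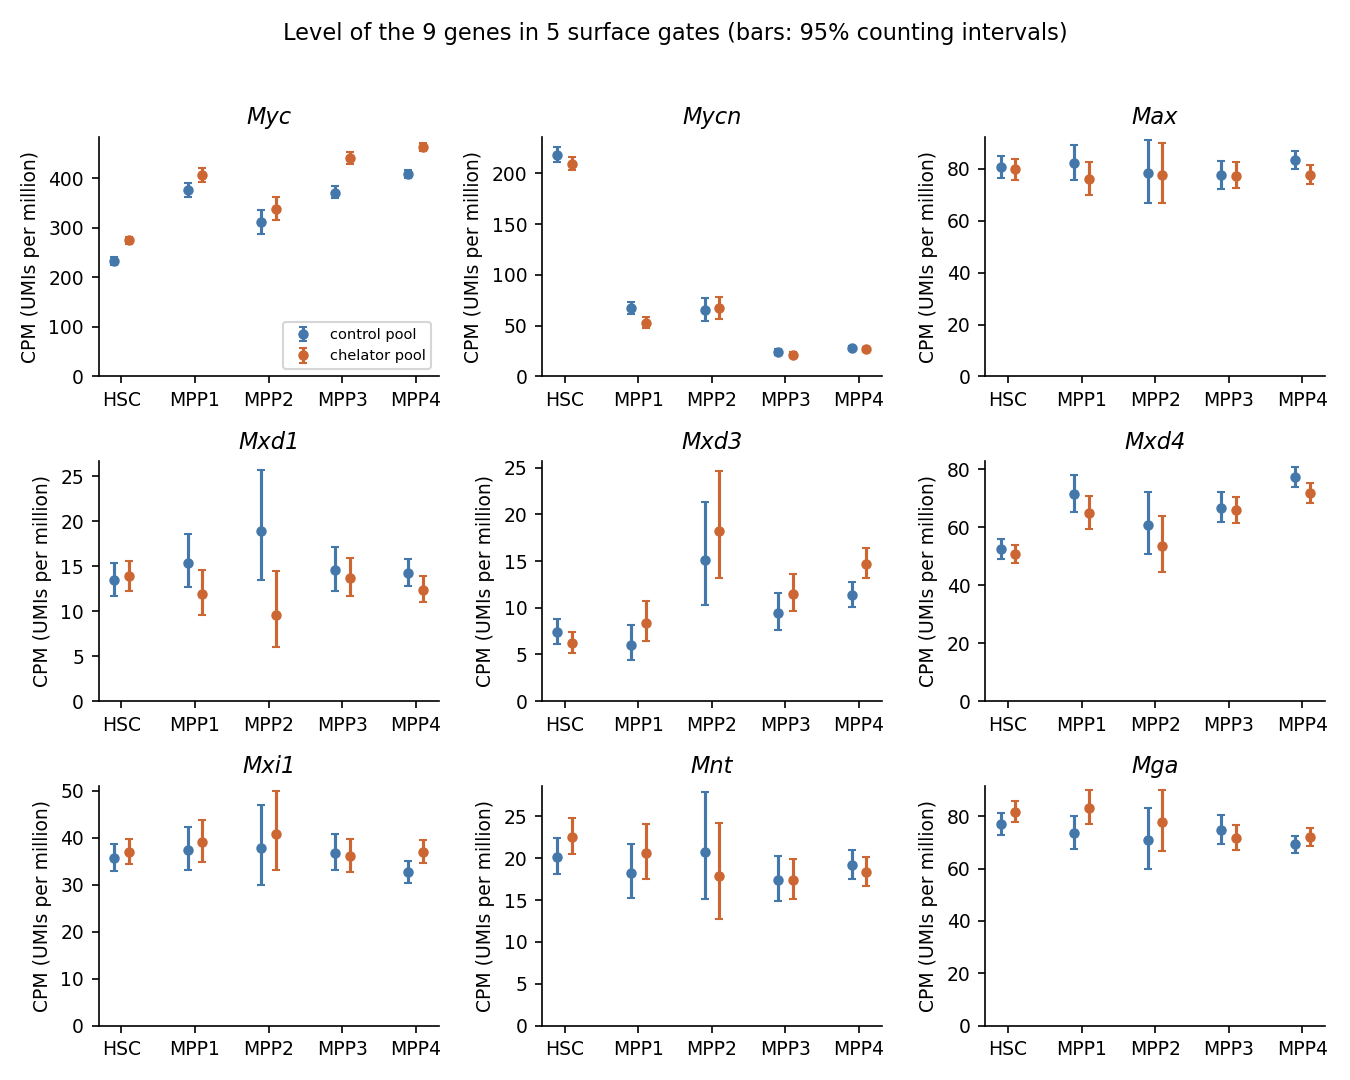
Level of each of the 9 genes, in CPM, in the HSC, MPP1, MPP2, MPP3 and MPP4 gates of the control (blue) and chelator (orange) pools; points are sums over the cells of a gate and bars are 95% counting intervals. Mycn is near 210 to 220 in the HSC gate and under 30 in MPP3 and MPP4, Myc is lowest in the HSC gate, and Max stays between 76.1 and 83.3.

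The tags gave the same picture without gates. With the cells of both pools ordered together by CD150 tag and divided into 5 equal groups, Mycn went from 23.2 CPM in the lowest group to 276 in the highest in the control pool, and from 23.8 to 258 in the chelator pool. Myc went from 399 to 210 and from 473 to 244. Along CD48, a tag carried by more mature progenitors, Mycn fell from 226 to 17.2 CPM and from 207 to 18.8, while Myc went from 234 to 408 and from 277 to 468. Along CD135 the spans were narrower, with Mycn from 158 to 28.0 and from 146 to 27.5 CPM. These groups and the gates use the same tags and are not independent of each other.

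**Figure D2:**
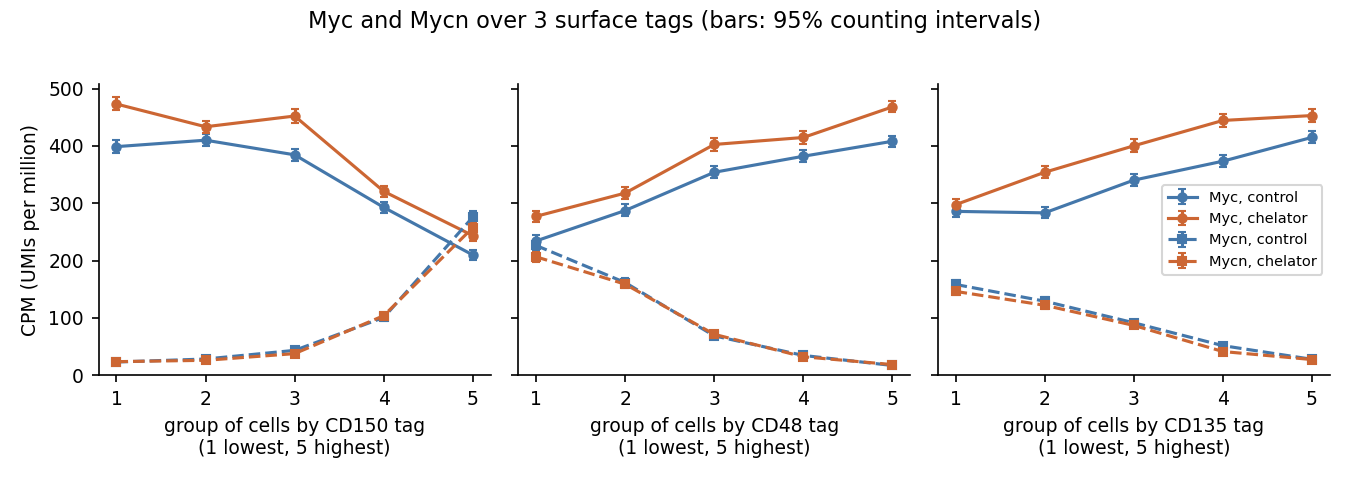
Level of Myc (solid lines, circles) and Mycn (dashed lines, squares), in CPM, in the control (blue) and chelator (orange) cells of 5 groups, made by dividing both pools together into equal numbers along the CD150, CD48 or CD135 tag; bars are 95% counting intervals. Mycn climbs with CD150, to 276 and 258 in the highest group, where Myc is at its lowest.

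The summed UMIs of Myc and Mycn differed far less between gates than either gene. This sum was chosen after the values of both genes had been seen. It was 452 and 484 CPM in the HSC gate, 444 and 459 in MPP1, 377 and 406 in MPP2, 395 and 462 in MPP3, and 437 and 490 in MPP4. Mycn made up 48.4% and 43.2% of it in the HSC gate against 6.37% and 5.46% in MPP4. UMIs of different genes may be captured with different efficiency, so these shares compare gates and not the amounts of the 2 proteins.

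Within the HSC gate, detection of Mycn differed little between cells with and without a Myc UMI. With every cell thinned to 5000 UMIs, 25% of the 1126 control cells held UMIs of both genes, 24.2% of Myc alone, 27.2% of Mycn alone and 23.5% of neither. Mycn was detected in 50.8% of the cells with a Myc UMI and in 53.6% of those without one. In the chelator pool these shares were 50.7% and 53.1% of 1271 cells. Pearson's r of the UMIs over cells was -0.05 and -0.01, a description of sparse counts that share depth and library.

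Max, the obligate partner, was the flattest of the 9 genes. It ranged from 77.5 to 83.3 CPM over the gates of the control pool and from 76.1 to 79.8 in the chelator pool, and no neighbours in the order of gates were resolved. Among the Mxd repressors, Mxd4 had the same order of gates as Myc in both pools. Every neighbouring interval of Mxd4 overlapped, so the order of neighbours is not resolved. It was at 52.3 CPM in the control HSC gate and 77.4 in MPP4, 1.48-fold apart (1.37 to 1.6), and at 50.8 and 71.9 in the chelator pool, 1.42-fold apart (1.31 to 1.53). Mxd3, a repressor tied to dividing cells, was at 7.39 and 6.19 CPM in the HSC gate and 11.4 and 14.7 in MPP4, lower in HSC by 1.54-fold (1.24 to 1.92) and 2.38-fold (1.93 to 2.95). In the small MPP2 gate it was at 15.1 and 18.3 CPM, with intervals that overlap those of MPP4. Mxd1, known for its rise during granulocyte differentiation, lay between 13.5 and 18.9 CPM in the control pool and between 9.57 and 13.9 in the chelator pool, with every neighbouring interval overlapping. Mxi1 spanned 32.6 to 37.7 and 36.1 to 40.9 CPM. Mnt, the most widely expressed antagonist, spanned 17.4 to 20.8 and 17.4 to 22.5, and Mga, which joins Max to a Polycomb complex, 69.3 to 76.9 and 71.7 to 83.3.

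In each pool, 3 of the 9 genes were past 1.5-fold between the HSC and MPP4 gates: Mycn higher, Myc and Mxd3 lower. Over all 9840 genes, 22.0% were past 1.5-fold in the control pool and 23.2% in the chelator pool. The median log2 ratio of the 9 was -0.05 and 0.04, beside -0.02 and -0.02 over all genes. At 2-fold, Mycn alone was past the threshold in the control pool, and Mycn and Mxd3 in the chelator pool. The share of all genes past 2-fold was not computed, so these counts have no background beside them. The gates differ in their cycle scores, computed after every cell was thinned to 5000 UMIs: 20.5% and 21.8% of HSC gate cells had a positive S or G2M score against 53.9% and 57.9% in MPP4. Within cells that had no positive score, Mycn remained 6.05-fold (5.42 to 6.77) and 5.34-fold (4.76 to 6.01) higher in the HSC gate. Myc was lower there by 1.94-fold and 2.01-fold, and Mxd4 by 1.95-fold and 1.78-fold. Mxd3 differed otherwise: among cells with a positive score its ratio of HSC over MPP4 was 1.39 (1.12 to 1.73) in the control pool and 0.924 (0.743 to 1.14) in the chelator pool. The lower Mxd3 level of the whole HSC gate was thus not seen among its cells with a positive score.

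Mxd3 was separated far more by the score classes than by the gates. Each cell had a score for DNA replication genes (S) and a score for mitotic genes (G2M), from lists that hold none of the 9. Mxd3 had 598 UMIs in the 1615 control cells with a positive score and 5 in the 2195 without, or 16.8 against 0.185 CPM, a ratio of 90.7 (38.7 to 281). In the chelator pool it had 732 UMIs in 1728 cells and 4 in 2132, a ratio of 126 (48.9 to 463). The signal lay in cells with a positive G2M score. Cells positive for S alone held 3 Mxd3 UMIs in each pool, or 0.264 and 0.248 CPM. Cells positive for both were at 24.4 and 25.6 CPM, and cells positive for G2M alone at 24.8 and 29.7. Mxd3 lies on the minus strand of chromosome 13 and overlaps Prelid1 on the plus strand, and the sources used here do not say whether counting used strand. Prelid1 had 21338 UMIs and differed between the same classes by 1.39-fold and 1.36-fold.

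**Figure D3:**
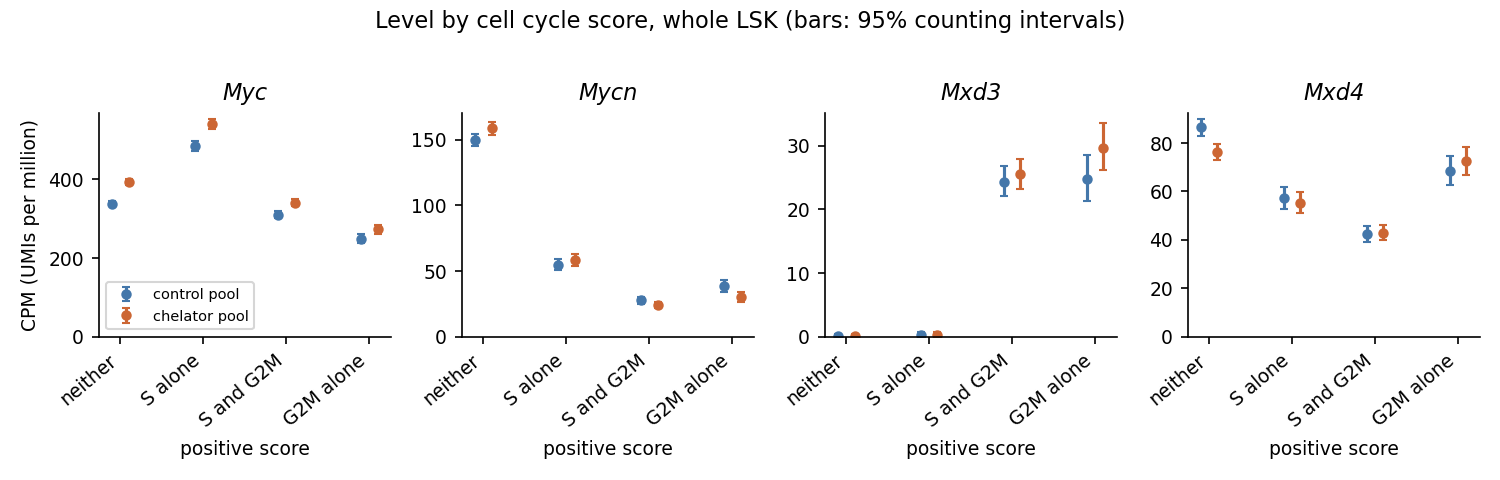
Level of Myc, Mycn, Mxd3 and Mxd4, in CPM, in whole LSK cells grouped by a positive S score, G2M score, both or neither, in the control (blue) and chelator (orange) pools; bars are 95% counting intervals. Mxd3 is near 0 without a positive G2M score and near 25 to 30 with one, while Mycn is highest, at 150 and 159, in cells with neither score.

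Mycn showed the opposite order. It was at 150 and 159 CPM in cells with neither score and at 38.6 and 36.1 in cells with one, lower by 3.89-fold (3.66 to 4.14) and 4.39-fold (4.13 to 4.67). The difference was smaller within the HSC and MPP4 gates, and the part of the gates in it was not tested. Within the HSC gate alone the values were 270 against 106 CPM in the control pool and 261 against 101 in the chelator pool, 2.55-fold and 2.58-fold apart. Within MPP4 they were 44.6 against 19.6 and 48.8 against 18.1.

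Myc differed little between cells with and without a positive score, at 353 against 338 CPM in the control pool and 387 against 392 in the chelator pool. Its phases diverged. Cells positive for S alone were at 485 and 540 CPM, 1.44-fold (1.39 to 1.49) and 1.38-fold (1.34 to 1.42) above cells with neither score. Cells positive for G2M alone were at 249 and 273 CPM, 1.36-fold and 1.44-fold below them. The order held within the HSC gate, where S alone gave 351 and 377 CPM, neither 230 and 274, and G2M alone 173 and 161. It also held within MPP4, at 557 and 593, 447 and 550, and 273 and 330 CPM.

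Mxd4, the Mxd member linked to resting and differentiated cells, was at 86.4 and 76.2 CPM without a positive score and at 52.7 and 53.5 with one. These are 1.64-fold (1.54 to 1.75) and 1.42-fold (1.34 to 1.51) apart. Its lowest class was the cells positive for both scores, at 42.4 and 43.0 CPM. The remaining 5 genes were lower in cells with a positive score in both pools, by 1.03-fold to 1.33-fold, with the interval of Mxi1 reaching 1 in the chelator pool. Past 1.5-fold were Mxd3, Mycn and Mxd4 in the control pool, and Mxd3 and Mycn in the chelator pool. Of all genes, 24.7% and 24.0% were past that size.

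The genes most like each member in their profile were found over the 10 combinations of gate and pool, by Pearson's r of log2(CPM + 1) among 9332 genes. The combinations share pools and depth, and the values are descriptions. Among the 5 closest to Mycn were Ptprk, Tns2, Npas3 and Jam2, with r from 0.989 to 0.992. Jam2 encodes an adhesion molecule and was at 52.5 CPM in the control HSC gate and 1.74 in MPP4. Closest to Myc were Polr2k, Arhgdib, Ugt1a7c, Impdh1 and Bola1 (0.963 to 0.978). Polr2k encodes a subunit shared by the RNA polymerases and Impdh1 an enzyme of guanine nucleotide synthesis. Closest to Mxd3 were Bub3, Aurka, Cenpl, Prc1 and Ube2c (0.968 to 0.977), genes of the mitotic spindle and of mitotic exit. Aurka and Ube2c are in the G2M list that scored the cells. Closest to Mxd4 were Inpp5d, Pde7a, Bid, Tes and Zfp800 (0.957 to 0.968), and to Mxd1 Scp2, Tyk2, Zfp148, Bcl7a and Rsl1 (0.900 to 0.905). The Mxd1 intervals of neighbouring gates all overlapped, and Scp2 was nearly flat, at 135 and 137 CPM in the control HSC and MPP4 gates. The genes listed for Mxd1 may thus follow counting error. Between members, r was -0.90 for Myc and Mycn, 0.82 for Myc and Mxd4, -0.80 for Mycn and Mxd4, and 0.72 for Mycn and Mnt.

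Between the conditions, Myc was higher in the chelator pool in every gate. It stood at 345 CPM in the control pool and 388 in the chelator pool, from 21838 and 25811 UMIs, a ratio of 1.12 (1.1 to 1.14). By gate the ratio was 1.18 (1.13 to 1.23) in HSC, 1.08 (1.02 to 1.14) in MPP1, 1.09 (0.978 to 1.21) in MPP2, 1.19 (1.14 to 1.24) in MPP3 and 1.13 (1.1 to 1.16) in MPP4. The MPP2 interval, from 661 and 779 UMIs, includes 1. Cells with Xist gave 1.08 (1.05 to 1.12), from 376 to 408 CPM, and cells with Y-linked transcripts 1.16 (1.13 to 1.19), from 336 to 389. All 10 combinations of gate and sex had a ratio above 1, from 1.06 to 1.22, and in 2 of them the interval included 1: MPP1 cells with Xist (0.998 to 1.20) and MPP2 cells with Y-linked transcripts (0.878 to 1.28). Cells without a positive cycle score gave 1.16 (1.13 to 1.19) and cells with one 1.1 (1.07 to 1.12).

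Immediate-early genes, which respond fast to signals and to tissue handling and to which Myc is often counted, differed between the same pools. Their summed level over 22 genes was 2739 CPM in the control pool and 3377 in the chelator pool, and 4144 and 5358 in the HSC gate, with no gene at 0. Fos was at 312 and 465 CPM (ratio 1.49, 1.46 to 1.52) and Egr1 at 202 and 292 (1.44, 1.41 to 1.48). Of the 22 genes, 17 had enough UMIs, and 11 were past 1.1-fold higher and 1 lower, where 8.03% of all genes were past that size. Their median log2 ratio was 0.27, with Nr4a1 the highest at 0.83 and Btg2 the lowest at -0.15. The Fos ratio was 0.862 (0.832 to 0.893) in Xist cells and 1.92 (1.88 to 1.98) in those with Y-linked transcripts. Egr1 was higher in the chelator pool in both sexes. It was at 180 and 257 CPM in Xist cells and at 197 and 284 in those with Y-linked transcripts. The part of these genes in the Myc result was not tested.

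**Figure D4:**
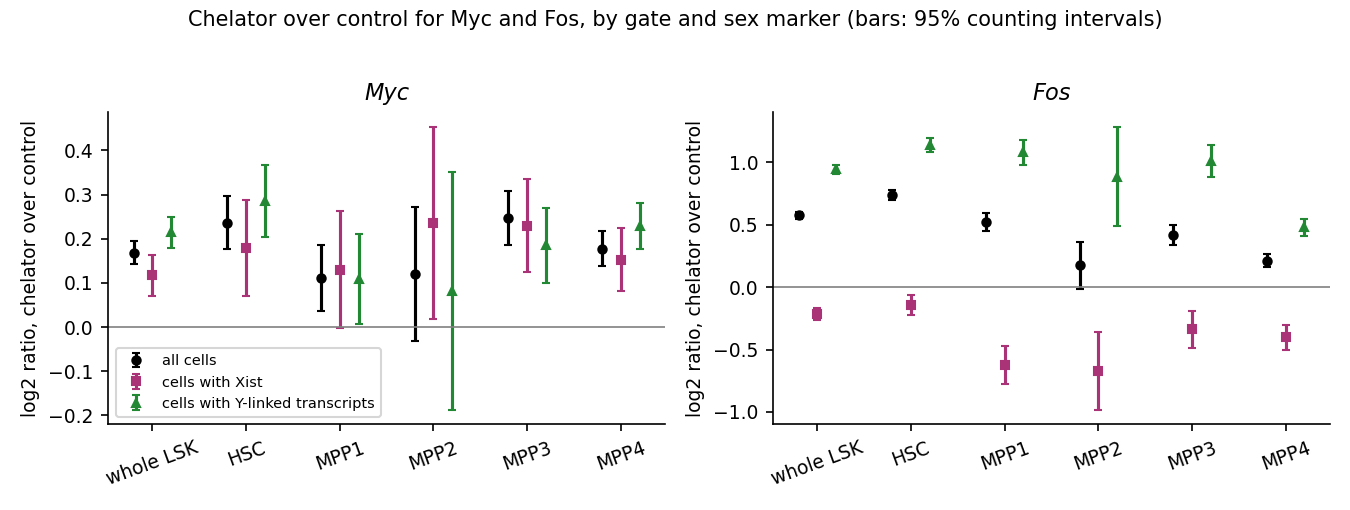
Log2 ratio of chelator over control for Myc (left) and Fos (right) in whole LSK and in 5 gates, for all cells (black), cells with Xist (purple) and cells with Y-linked transcripts (green); bars are 95% counting intervals and the vertical scales differ. All Myc points lie above 0, while Fos lies below 0 in Xist cells and above 0 in cells with Y-linked RNA.

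Mycn was at 86.7 and 86.1 CPM in the pools as a whole (ratio 0.993, 0.957 to 1.03), yet the sexes had opposite signs. It was at 80.5 and 101 CPM in Xist cells (1.255, 1.17 to 1.34) and at 85.6 and 76.9 in those with Y-linked transcripts (0.898, 0.853 to 0.946). Within the HSC gate, where Mycn is concentrated, the ratios were 0.992 (0.915 to 1.08) and 0.955 (0.897 to 1.02), with both intervals including 1. The share of Xist cells by gate differed between the pools: 35.8% of sexed cells in the control HSC gate and 27.0% in the chelator one, against 43.1% and 22.3% in MPP4. In the MPP1 gate Mycn was lower in the chelator pool, at 67.3 and 52.9 CPM (0.787, 0.688 to 0.900), with ratios of 0.896 (0.691 to 1.16) and 0.794 (0.666 to 0.945) in the sexes.

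Max was at 81.4 and 78.2 CPM, a ratio of 0.960 (0.924 to 0.998), with 1.0 in Xist cells and 0.939 in those with Y-linked transcripts. Among the repressors, Mxd3 had the highest ratio and Mxd1 the lowest. Mxd3 was at 9.55 and 11.1 CPM, from 604 and 736 UMIs, a ratio of 1.16 (1.04 to 1.29). This did not hold throughout: it was 0.996 (0.804 to 1.23) in Xist cells, 1.17 (1.02 to 1.35) in those with Y-linked transcripts, and 1.11 (0.999 to 1.24) in cells with a positive score. With every cell thinned to 5000 UMIs its log2 ratio was -0.0088. By gate it was 0.838 (0.646 to 1.09) in HSC and 1.29 (1.1 to 1.52) in MPP4. Of the 50 genes of the G2M list, 12 were past 1.1-fold higher in the chelator pool as a whole and none lower, beside 8.03% of all genes. In the HSC gate 34 were lower and none higher (20.9% of all genes), and in MPP4 7 were higher and 1 lower (17.2%), near the share of all genes. Of the 43 genes of the S list, 3 were higher and none lower in the whole pools, Prim1 the most at 0.17, with a median of 0.04. Mxd1 was at 14.4 and 13.0 CPM, from 910 and 862 UMIs, a ratio of 0.901 (0.820 to 0.990). The sexes gave 0.837 and 0.927, and the HSC gate 1.03 (0.860 to 1.24).

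Mxd4 was at 67.5 and 62.9 CPM, a ratio of 0.931 (0.892 to 0.972). The difference lay in cells without a positive cycle score, at 86.4 and 76.2 CPM (0.882, 0.831 to 0.936), while cells with one were at 52.7 and 53.5 (1.02, 0.955 to 1.08). Mxi1 was at 35.2 and 37.4 CPM (1.06, 1.0 to 1.12), Mnt at 19.1 and 19.7 (1.03, 0.954 to 1.12) and Mga at 72.6 and 76.4 (1.05, 1.01 to 1.09). Past 1.1-fold were 3 of the 9 genes, Myc and Mxd3 higher and Mxd1 lower, beside the 8.03% of all genes. The median log2 ratio of the 9 was 0.05, beside 0.00 over all genes. None of the 9 was as much as 25% higher or 20% lower, a size that 0.945% of all genes reached. Within gates, 3 of the 9 were past 1.1-fold in HSC (Myc and Mnt higher, Mxd3 lower) and 4 in MPP4 (Myc, Mxd3 and Mxi1 higher, Mxd1 lower), where 20.9% and 17.2% of all genes were.

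**Figure D5:**
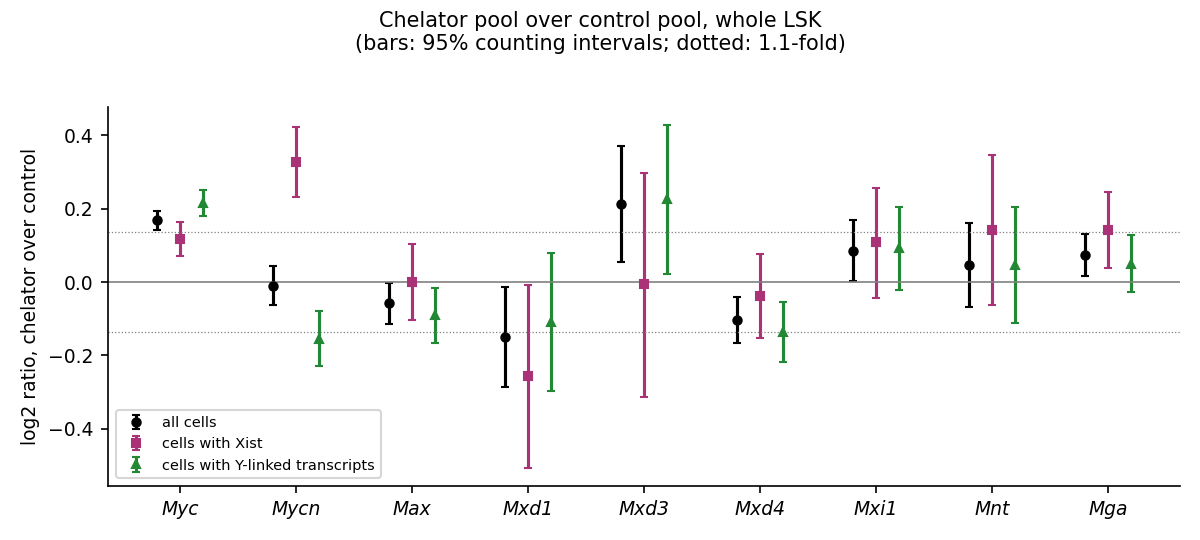
Log2 ratio of chelator over control in whole LSK for the 9 genes, for all cells (black), cells with Xist (purple) and cells with Y-linked transcripts (green); bars are 95% counting intervals and dotted lines mark 1.1-fold. Myc is above 0 in all 3 sets, Mycn has opposite signs in the sexes, and the intervals of Mxd1, Mxd3 and Mnt are wide.

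The Myc difference was also visible as a share of cells. At 5000 UMIs per cell, 63.9% of 3810 control cells and 68.0% of 3860 chelator cells held a Myc UMI (Clopper-Pearson 62.4 to 65.4 and 66.5 to 69.5), with 159 and 138 shallower cells left out. Without thinning the shares were 79.5% and 83.2%. In the HSC gate the shares were 49.3% and 56.2%, and in MPP4 71.5% and 76.7%. Mycn was seen in 52.2% and 51.8% of HSC gate cells and in 13.5% and 13.4% of MPP4 cells. LSK cells hold no type known to lack Myc, so the share owed to free RNA was not measured. For Mxd3 the 2195 and 2132 cells without a positive cycle score held the 5 and 4 UMIs given above. Myc and Mycn were unevenly spread over cells, with a variance over mean of 2.40 and 2.33 in the control pool, where 1 is the value of a Poisson count. For the other 7 genes it was 1.01 to 1.21. Of the 9 genes, 5 had a higher share in the chelator pool. At the 2 other depths, 3000 UMIs and no thinning, this count ranged from 4 to 7. The same count over all genes was not made.

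The genes on which the network acts differed between the score classes. Of 40 genes that Myc is known to activate, 39 had enough UMIs, and 22 in the control pool and 17 in the chelator pool were past 1.5-fold higher in cells with a positive score, among them Mcm4 and Cad, where 24.7% and 24.0% of all genes were past that size in either direction. None of the 40 is in the score lists. Ccnd2, a D-type cyclin, was the 1 gene past that size in the other direction, at -0.68 and -0.60 on the log2 scale. Their median log2 ratio of HSC over MPP4 was -0.39 and -0.33, with 36 and 34 of 39 below 0. Past 1.5-fold were 5 and 4 lower genes, with Shmt1 the lowest at -1.05 and -0.98, and 1 higher gene each, Ccnd2 at 0.64 in the control pool and Ldha at 0.62 in the chelator pool. Of all genes, 22.0% and 23.2% were past that size, a larger share than in the list. Between the conditions none was past 1.1-fold and their median was 0.00, the same as over all genes to 2 decimals. The lowest was Rrp9 at -0.13 and the highest Paics, an enzyme of purine synthesis, at 0.05. In the HSC gate 32 of the 39 were above 0, with a median of 0.07, beside -0.01 over all genes. Past 1.1-fold there were 3 higher and 1 lower, a smaller share than the 20.9% of all genes past that size.

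Of 11 genes that Myc is known to repress, 8 had enough UMIs, with 2 past 1.1-fold higher, 1 lower and a median of -0.04. Cdkn1a, the cell cycle inhibitor p21, was higher in the chelator pool by 0.24 on the log2 scale and Cebpd by 0.22, while Gadd45a stood at -0.15. Between the HSC and MPP4 gates, Cebpa, Cdkn1a and Tgfbr2 were past 1.5-fold lower in HSC in both pools, and none was higher. The median of the 8 was -0.21 and -0.23, and 22.0% and 23.2% of all genes were past 1.5-fold. In cells with a positive score Cdkn1a and Cebpa were past 1.5-fold higher in both pools and none lower, beside 24.7% and 24.0% of all genes. Among the cofactors, none of 14 coactivator genes and none of 13 corepressor genes was past 1.1-fold between the conditions, nor was any of 14 genes of Myc protein turnover, beside 8.03% of all genes. Their medians were -0.01, 0.03 and 0.01. In the HSC gate, where 20.9% of all genes were past that size, 1 coactivator gene (Ruvbl2) and 1 corepressor gene (Sin3b) were higher. Of the turnover genes, Fbxw7, Usp36 and Trim32 were higher there, and Usp28, Aurka and Plk1 lower. Aurka and Plk1 also differ by score class, at 4.82 and 6.71 (log2, positive score over none) in the control pool. Of the 50 genes of the G2M list, which holds Aurka, 34 were lower in the same gate. Fbxw7 encodes a ubiquitin ligase subunit that marks Myc for degradation. Of 13 genes of the Polycomb complex that Mga joins, L3mbtl2 alone was past 1.1-fold in the whole pools, at -0.16, with a median of 0.02. In the parallel Mlx arm, Mlxip, which encodes the glucose-responsive factor MondoA, was at -0.20 and Mlx at -0.06, and the other two genes of the arm had too few UMIs. Of 3 known MondoA targets, Txnip and Arrdc4 were past 1.5-fold higher in the HSC gate than in MPP4, at 1.43 and 1.65 in the control pool and 1.61 and 1.76 in the chelator pool. Arrdc3 was at -0.15 and 0.07. Of all genes, 22.0% and 23.2% were past that size. Between the conditions Txnip was at -0.11, Arrdc4 at 0.08 and Arrdc3 at 0.13.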

How the data were processed

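The authors deposited 1 matrix per condition with raw UMI counts per gene, surface tag and cell. The counts were made with Cell Ranger, version 7.0.1 per the file headers and 7.0.0 per the submitters' processing notes, which also name mm10 and Seurat 4.3.0. For the annotation release, barcode filter, hashtag assignment and strand setting, nothing is stated in the labels or headers used. In 4025 of 4026 control and 4037 of 4037 chelator barcodes, the hashtag of the labelled condition had more counts than the other.

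Barcodes with fewer than 500 genes, or 10% or more of UMIs from mitochondria, were removed (57 and 39). UMIs were summed over the cells of a group and divided by total gene UMIs (CPM). Ratios carry exact conditional binomial, sums Poisson and shares Clopper-Pearson 95% intervals. With 1 pool per condition there is no p-value. The ratio intervals were tested on simulated Poisson counts, which they assume, so that test does not cover extra spread between cells. Myc and Mycn were spread over cells more unevenly than Poisson counts, so their intervals may be too narrow. Tag thresholds came from 2-component mixtures fitted to centred log ratios of both pools. Xist cells had at least 2 Xist UMIs and none of 4 Y-linked genes, and Y cells at least 1 Y-linked UMI without Xist. S and G2M scores (50 control genes per gene, 25 bins) used cells thinned to 5000 UMIs, so shallower cells have no score. No doublet caller was run, and 35 and 52 cells with both sex markers remain. Promoter sequences and coordinates came from RefSeq (GRCm38.p6).

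All 9 members are named. For the lists, counts are given with the median and genes among the extremes of the condition ratio, and for 5 members the 5 genes nearest in profile. Some genes that these rules name are not reported here. Other genes were named after their values were seen (Ccnd2, Cad, Mcm4, Shmt1, Ldha, Usp28, Usp36, Sin3b, Cebpa). The members, lists, 1.1-fold size and alternatives were chosen with earlier results of these data known. Python 3.11.15, numpy 2.4.6, pandas 2.3.3 and scipy 1.17.1 were used.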

Additional observations from a re-analysis of the deposited data

Results flagged for a closer look

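The condition ratio of some members had opposite signs in Xist cells and in those with Y-linked transcripts, each past 1.1-fold, and the difference between the sexes was not tested. Mycn in whole LSK was at 0.33 (log2, chelator over control) in Xist cells and at -0.15 in those with Y-linked transcripts, and neither interval included 0. Mycn in the MPP4 gate was at 0.40 and -0.27, from 172 and 284 UMIs and from 394 and 356 UMIs (chelator and control), again with intervals off 0. In the MPP2 gate, which is small, Mycn was at 0.30 and -0.26 and Mnt at -0.83 and 0.93, the latter from 7 to 28 UMIs per group. Mxd1 in the HSC gate was at 0.26 and -0.16, and Mxi1 in the MPP1 gate at -0.34 and 0.18. For these 4 pairs all intervals included 0. The sexes come from different animals within a pool, so sex and animal cannot be told apart.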

How the results depend on the processing

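Each result was recomputed under up to 15 alternatives, 2 of them added after seeing the data (5 gates weighted equally, and the gates compared in cells without a positive score). The Myc ratio between conditions was 0.17 (log2) and stayed above 0 in all 11 alternatives. It moved out of its interval to 0.20 as a mean over cells, 0.12 in Xist cells, 0.21 in those with Y-linked transcripts and 0.25 in cells without a Fos UMI, a split by a gene that itself differed between the pools. The number of members past 1.1-fold, 3, became 0 with the wider size (25% higher or 20% lower). The number past 1.5-fold between HSC and MPP4 became 1 in the control pool at 2-fold, and 5 in the chelator pool in cells without a Fos UMI. The Mxd3 ratio between conditions, 0.21, reversed to -0.0059 in Xist cells and to -0.0088 with every cell thinned to 5000 UMIs. The median of gene ratios as the scale shifted values by at most 0.07. Of 537 values of single members, 446 stayed inside their interval and 2 reversed. Reversed means a change of sign in a value that was past the size for a call. Changes of sign in smaller values were not counted, such as Mycn between the conditions (-0.0096, with alternatives from -0.19 to 0.33). Another was Myc between score classes in the control pool, at 0.06 with alternatives down to -0.08. No paired analysis was possible because each condition is 1 pool. Depth limits Mxd1, Mxd3 and Mnt most, and MPP2 among the gates.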
